A study of Mus musculus with 6 samples.

Results

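The suppressor of cytokine signalling (SOCS) family and the STAT factors it restrains were examined in macrophages grown from bone marrow of mice without or with Cdh11, the gene of the adhesion protein cadherin-11. The set was fixed by gene name and held 10 genes, which are Socs1 to Socs7, Cish, Stat3 and Stat5a, of 42256 genes in the count table. All 10 passed the filter on low counts and are among the 12862 genes tested.

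Cytokines such as IL-6, IL-10, GM-CSF and the interferons bind receptors that carry JAK kinases, which phosphorylate STAT factors, and the STAT factors then enter the nucleus and switch on their target genes. Cish and Socs1 to Socs3 are among those targets in many cell types, and their proteins act back on the receptor or the kinase, so they close a feedback loop. All SOCS proteins carry an SH2 domain, which binds phosphorylated tyrosine, and a SOCS box, through which they join an elongin and cullin-5 ubiquitin ligase. In macrophages SOCS3 is known for limiting the STAT3 response to IL-6, and SOCS1 for limiting the response to interferons.

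The knockout (KO) libraries carry the genotype CDH11-/- and the wild-type (WT) libraries CDH11+/+, and all came from adult males on a mixed background of 129S1/Sv and C57BL/6. Marrow cells of both genotypes were grown for 7 days with 20% medium conditioned by L929, a mouse fibroblast line that secretes the growth factor CSF1, and 10% FBS, and no further agent was given before total RNA was taken. There were 3 libraries per genotype, with 28193880 to 30122204 counts in KO and 27170943 to 37113689 in WT. The design text of the series speaks of 4 KO and 3 WT animals, but the sample labels name no animals, so the p-values rest only on how much these libraries vary, which may be technical. Cdh11 itself was near the detection limit, with 4 to 6 counts in KO and 6 to 11 in WT, so its transcript does not check the labels. All 8 macrophage markers examined were detected, and their summed level was 19539 to 25242 CPM (counts scaled for depth, with TMM factors) in KO and 31026 to 33588 CPM in WT, with 1 marker higher and 3 lower in KO. The B cell list summed to 48.8 to 76.8 CPM in KO and 106 to 130.9 CPM in WT, with 1 of its 2 tested genes lower in KO. The part of these marker lists in the results was not tested. Stromal markers were near 0 in all libraries, with Dcn and Lum at 0.

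Socs3, the inhibitor best known from the STAT3 feedback loop, had the largest fall of the 10 genes in KO macrophages, and Socs6, Stat3 and Socs5 also fell. None of the 10 rose. The words rise and fall are kept for genes that passed the edgeR quasi-likelihood test at an adjusted p (Benjamini-Hochberg, over all genes tested) under 0.05. Of all genes tested, 16.8% were called lower, 18.5% higher and 35.2% in either direction, so 4 falls among 10 genes stood against a background in which falls were common. The median log2 fold change was -0.37 for the 10 genes and 0.0014 for all genes tested. For 6 of the 10 genes every KO library lay below every WT library, against 26.4% of all genes tested (53.4% of all genes had no overlap in either direction). In bulk RNA such a difference cannot separate fewer cells of a type from less RNA per cell.

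**Figure D1:**
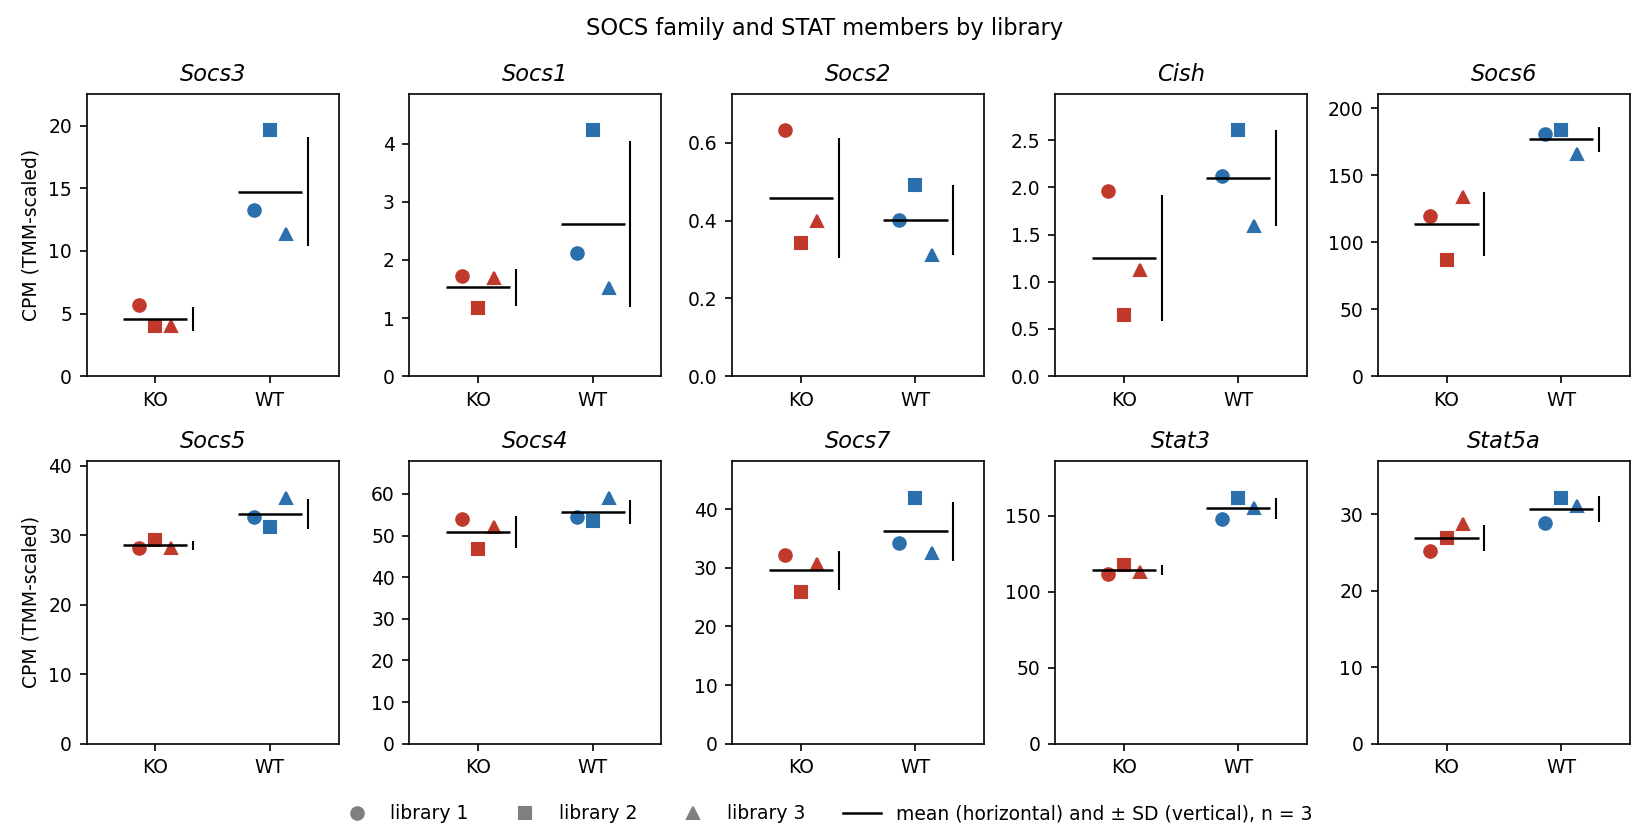
CPM of each of the 10 genes in every library, KO left and WT right, with a separate axis from 0 for each gene; bars give the mean and ± SD of 3 libraries. The KO libraries of Socs3 (3.99 to 5.69 CPM) and Stat3 (112 to 118 CPM) lie below all WT libraries, while those of Socs2 overlap with WT.

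Socs3 (ENSMUSG00000053113, GRCm38 chromosome 11, 117966079 to 117970047, minus strand) stood at 5.69, 4.02 and 3.99 CPM in KO 1 to KO 3, against 13.3, 19.6 and 11.3 CPM in WT 1 to WT 3. The highest KO library was thus well below the lowest WT library, and WT 2 was the highest of all. The means were 4.56 ± 0.973 CPM in KO and 14.7 ± 4.34 CPM in WT (SD, n = 3 each). The fall was 3.23-fold, at -1.69 on the log2 scale (SE 0.24; edgeR quasi-likelihood test, Benjamini-Hochberg adjusted p = 0.00635). Counts behind these values were 162, 117 and 120 in KO and 495, 520 and 329 in WT. Without WT 2 the log2 fold change was -1.44, and without WT 2 and KO 2 together it was -1.35, with the call kept in each case. Among the 2072 genes called lower and averaging at least 1 log2 CPM, Socs3 had the 22nd largest fall.

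STAT3 is known to drive Socs3 through sites of the form TTCNNNGAA. For this reason the stretches before the annotated starts of Socs3 and Stat3 are shown, with matches to that motif in capitals, beside the matching stretch of Cish. The sequences are from RefSeq on GRCm38.p6, 5′ to 3′ on the strand of the gene. The Socs3 stretch is chr11:117969367-117969616 (minus strand), upstream of the protein-coding GENCODE transcript that starts at 117969186, while noncoding Socs3 transcripts start further upstream. The Stat3 stretch is chr11:100939541-100939790 (minus strand), and the Cish stretch is chr9:107296659-107296678 (plus strand). The Cish stretch lies inside the span of a protein-coding GENCODE transcript that starts at 107296026. It lies before the starts of other protein-coding GENCODE transcripts, at 107296710 and 107296912.
Socs3: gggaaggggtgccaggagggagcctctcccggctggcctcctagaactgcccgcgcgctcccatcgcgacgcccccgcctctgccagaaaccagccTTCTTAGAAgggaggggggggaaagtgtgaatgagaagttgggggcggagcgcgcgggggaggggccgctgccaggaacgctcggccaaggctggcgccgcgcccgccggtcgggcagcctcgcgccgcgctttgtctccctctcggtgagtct
Stat3: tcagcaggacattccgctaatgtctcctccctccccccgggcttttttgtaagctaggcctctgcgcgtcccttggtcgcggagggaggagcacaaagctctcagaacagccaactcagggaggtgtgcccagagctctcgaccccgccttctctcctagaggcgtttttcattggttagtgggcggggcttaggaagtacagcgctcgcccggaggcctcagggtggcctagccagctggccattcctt
Cish: TTCCTGGAAagTTCTTGGAA

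The motif reads the same on both strands, so 1 search covers both. Windows of 300 bases, 250 before the RefSeq start and 50 after it, were available for 6 of the 10 genes, with 7 windows in all. Socs3 held 1 match, 154 to 146 bases before its RefSeq start at 117969366. Whether this match is a site through which STAT3 drives Socs3 was not tested. The Socs3 window ended at 117969317, so the bases from there to the protein-coding start at 117969186 were not searched. Cish held 2 matches, at bases 1 to 9 and 12 to 20 of its RefSeq transcript. The windows of Socs1, Socs4, Stat3 and Stat5a held none, which says only that these letters are not in these windows. Of all 32851 promoter windows 8.30% held at least 1 match and 0.457% held 2 or more. Among windows of the target lists used further on, 3 of 30 for STAT3 and 2 of 11 for STAT5 held a match. A gene can have several windows: those for STAT3 were of Sbno2 and Zfp36, and both for STAT5 were of Bcl6. A match is a description of the letters and not a measured binding site.

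Stat3 (ENSMUSG00000004040, chromosome 11, 100885098 to 100939540, minus strand), the factor that carries the IL-6 and IL-10 signal, was measured at 112, 118 and 113 CPM in KO 1 to KO 3, against 148, 162 and 155 CPM in WT 1 to WT 3. Neither genotype was spread widely, and the groups did not overlap. This is a log2 fold change of -0.44 (SE 0.06; edgeR quasi-likelihood test, Benjamini-Hochberg adjusted p = 0.00528), or a 1.36-fold fall, with means of 114 ± 3.30 CPM in KO and 155 ± 7.08 CPM in WT (SD, n = 3 each). The call held in each of the 15 alternatives, with log2 fold changes of -0.48 to -0.38. Set against Stat3 in the same library, 5.08, 3.40 and 3.54 Socs3 counts were found per 100 Stat3 counts in KO 1 to KO 3, against 8.97, 12.1 and 7.31 in WT 1 to WT 3. This ratio did not overlap between genotypes (two-sided exact permutation test, p = 0.1, the smallest value that 3 against 3 libraries allow).

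Stat5a (ENSMUSG00000004043, chromosome 11, 100859351 to 100885169, plus strand), which responds to GM-CSF and related cytokines, lies tail to tail with Stat3 and shares 72 exon bases with it on the opposite strand. It stood at 25.2, 26.9 and 28.7 CPM in KO and 28.9, 32.2 and 31.1 CPM in WT. The KO libraries were the 3 lowest, but KO 3 came within a small margin of WT 1, and the gene was not called (log2 fold change -0.19, SE 0.07; edgeR quasi-likelihood test, Benjamini-Hochberg adjusted p = 0.0806). Reads in the shared stretch may have been counted for either gene, since the sources used here do not give the strand setting.

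Socs6 (ENSMUSG00000056153, chromosome 18, 88665224 to 88927481, minus strand), one of the less studied family members and known for binding receptor tyrosine kinases such as KIT, had the highest mean level per length of the SOCS genes in both genotypes. It stood at 119.8, 87.0 and 134 CPM in KO 1 to KO 3, against 181, 183 and 166 CPM in WT 1 to WT 3. All KO libraries were below all WT libraries, with the KO libraries more spread than the WT libraries. This is a log2 fold change of -0.64 (SE 0.15; edgeR quasi-likelihood test, Benjamini-Hochberg adjusted p = 0.0207). Without WT 1 or without WT 2 the call was lost at log2 fold changes of -0.62 and -0.61 (adjusted p of 0.0684 and 0.0634 in the same edgeR test), and without KO 2 it held at -0.48.

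Socs5 (ENSMUSG00000037104, chromosome 17, 87107679 to 87137839, plus strand), described as a restraint on IL-4 and EGF receptor signalling, fell by a small amount. Its KO libraries stood at 28.2, 29.3 and 28.2 CPM and its WT libraries at 32.6, 31.2 and 35.4 CPM. The groups did not overlap, but the margin between KO 2 and WT 2 was narrow. This is a log2 fold change of -0.21 (SE 0.07; edgeR quasi-likelihood test, Benjamini-Hochberg adjusted p = 0.0408), and the call was lost in 12 of 15 alternatives, among them DESeq2 and the leaving out of any 1 library, at adjusted p of up to 0.155 and with no change of direction.

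Socs4 (ENSMUSG00000048379, chromosome 14, 47276931 to 47296102, plus strand), the close relative of Socs5, stood at 53.9, 46.7 and 52.1 CPM in KO and 54.4, 53.6 and 59.1 CPM in WT. KO 1 lay between WT libraries, and the difference was small (log2 fold change -0.13, SE 0.07; edgeR quasi-likelihood test, Benjamini-Hochberg adjusted p = 0.197). Socs7 (ENSMUSG00000038485, chromosome 11, 97362551 to 97398542, plus strand), known for binding adaptor proteins of insulin signalling, stood at 32.2, 25.9 and 30.6 CPM in KO and 34.2, 41.9 and 32.4 CPM in WT. All KO libraries were below all WT libraries, though KO 1 and WT 3 were nearly level, and Socs7 was not called (log2 fold change -0.29, SE 0.12; edgeR quasi-likelihood test, Benjamini-Hochberg adjusted p = 0.0964).

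**Figure D2:**
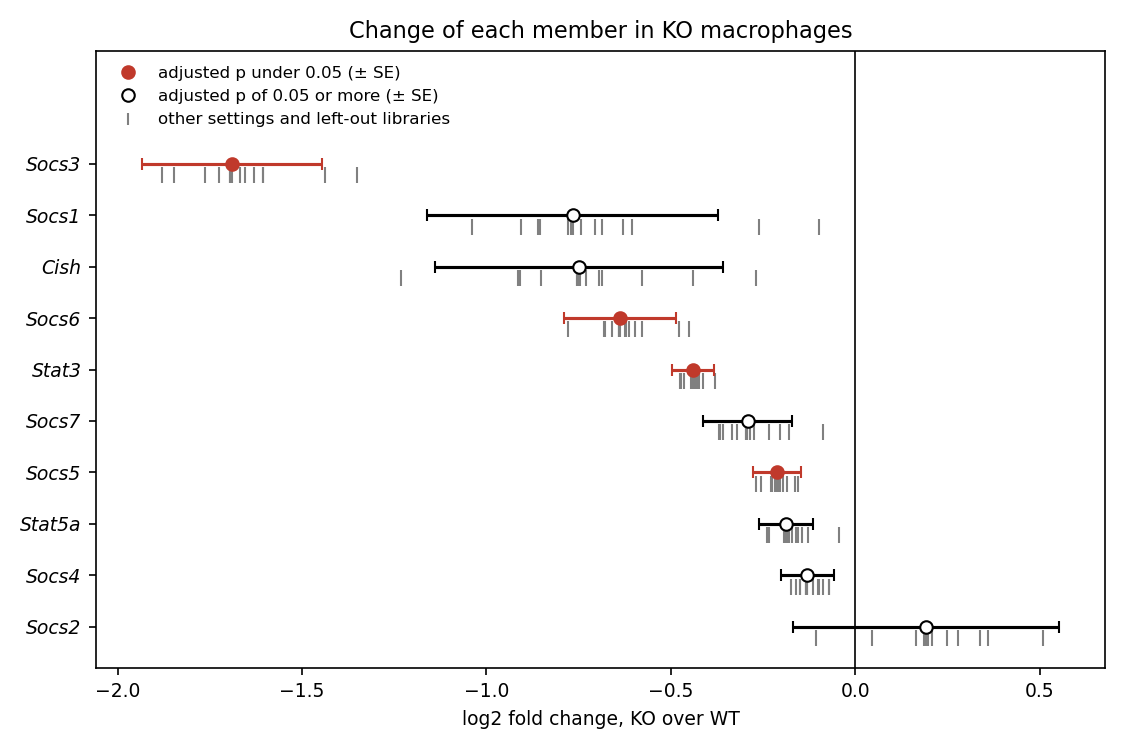
Log2 fold change of each of the 10 genes in KO over WT with its SE (points and bars), and the same value under the other settings and with libraries left out (grey ticks). Socs3 stays between -1.88 and -1.35 and Stat3 between -0.48 and -0.38, whereas Socs1 ranges from -1.04 to -0.10 and Cish from -1.23 to -0.27.

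The other cytokine-induced members were scarce and variable. Socs1 (ENSMUSG00000038037, chromosome 16, 10782240 to 10785536, minus strand), the inhibitor of JAK kinases in interferon signalling, stood at 1.72, 1.17 and 1.69 CPM in KO 1 to KO 3, against 2.12, 4.23 and 1.52 CPM in WT 1 to WT 3. WT 2 was well above the other WT libraries, and WT 3 was below 2 of the KO libraries, so the genotypes overlapped. This is a log2 fold change of -0.77 (SE 0.40; edgeR quasi-likelihood test, Benjamini-Hochberg adjusted p = 0.166), and -0.26 without WT 2.

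Cish (ENSMUSG00000032578, chromosome 9, 107296026 to 107302784, plus strand), the classical STAT5 target of the family, stood at 1.97, 0.652 and 1.13 CPM in KO 1 to KO 3, against 2.12, 2.60 and 1.59 CPM in WT 1 to WT 3. KO 1 was within the WT range while KO 2 and KO 3 were below it. This is a log2 fold change of -0.75 (SE 0.39; edgeR quasi-likelihood test, Benjamini-Hochberg adjusted p = 0.170). Without KO 1 it was -1.23 and passed the same edgeR test (adjusted p = 0.0242), the only call among 15 alternatives. Without KO 2 it was -0.44, and without WT 2 and KO 2 together it was -0.27, with no call in either fit. The antisense genes Gm17041 and Gm17040, which share exon bases with Cish, had no count in any library.

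Socs2 (ENSMUSG00000020027, chromosome 10, 95385362 to 95417180, minus strand), known for restraining growth hormone signalling, was close to the detection limit, with 18, 10 and 12 counts in KO and 15, 13 and 9 in WT. These gave 0.632, 0.343 and 0.399 CPM in KO and 0.402, 0.491 and 0.310 CPM in WT, with the genotypes intermingled. It was the 1 member with a higher fitted value in KO, at a log2 fold change of 0.19 (SE 0.36; edgeR quasi-likelihood test, Benjamini-Hochberg adjusted p = 0.701), and no difference was detectable at this depth.

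WT 2 was the highest WT library for 8 of the 10 genes, against 35.5% of all genes tested and 53.1% of the genes called lower. KO 2 was the lowest KO library for 6 of the 10, against 35.1% of all genes tested and 73.9% of those called lower. The part of these 2 libraries in the fall of each gene is given by the values without them, and 3 members were called lower without both, Socs3, Socs6 and Stat3.

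Levels can be compared between genes only per length, here as CPM per kb of exon in the annotation. In KO macrophages the order was Stat3 (12.0 ± 0.347), Socs6 (10.0 ± 2.13), Socs4 (7.40 ± 0.545), Socs5 (4.45 ± 0.0956), Socs7 (4.07 ± 0.452), Stat5a (3.78 ± 0.241), Socs3 (1.58 ± 0.337), Socs1 (0.525 ± 0.107), Cish (0.195 ± 0.104) and Socs2 (0.0480 ± 0.0161 CPM per kb, SD, n = 3 each). In WT macrophages the order was the same except for Socs3, which at 5.10 ± 1.5 CPM per kb stood between Socs5 and Socs7. The other WT levels were 16.3 ± 0.743 for Stat3, 15.6 ± 0.829 for Socs6, 8.09 ± 0.433 for Socs4, 5.16 ± 0.330 for Socs5, 4.98 ± 0.694 for Socs7, 4.31 ± 0.235 for Stat5a, 0.901 ± 0.489 for Socs1, 0.327 ± 0.0793 for Cish and 0.0421 ± 0.00946 CPM per kb for Socs2. Neighbours whose libraries overlapped in KO were Stat3 with Socs6, Socs6 with Socs4, Socs5 with Socs7 and Socs7 with Stat5a. In WT they were Stat3 with Socs6, and the run from Socs5 through Socs3 and Socs7 to Stat5a. Socs3 was thus below Socs5, Socs7 and Stat5a without overlap in KO, and overlapped with all of them in WT.

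**Figure D3:**
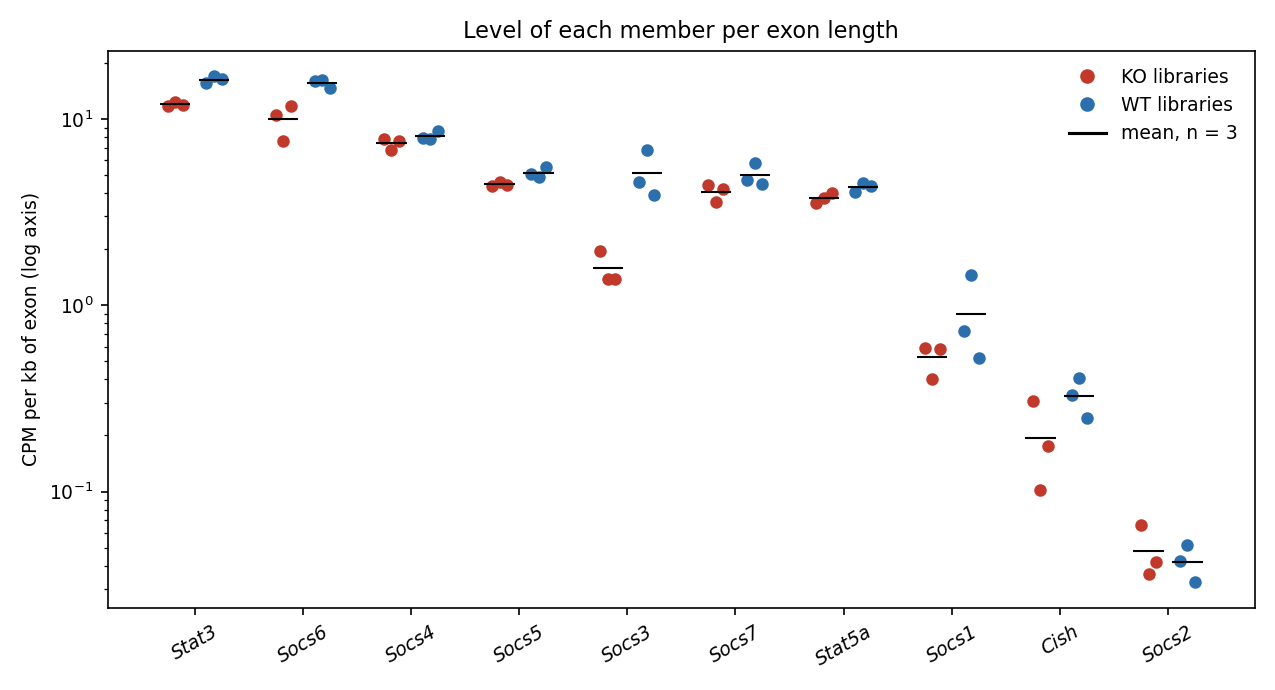
Level of each gene in CPM per kb of exon on a log axis, KO libraries left of WT libraries, with the mean of 3 libraries as a line. Socs3 lies at 1.38 to 1.97 CPM per kb in KO and 3.92 to 6.79 CPM per kb in WT, while Socs1, Cish and Socs2 are below 1.5 CPM per kb in both.

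Summed over Cish and Socs1 to Socs3, the cytokine-induced members held 2.93, 1.93 and 2.18 CPM per kb in KO 1 to KO 3, against 5.69, 8.70 and 4.72 CPM per kb in WT 1 to WT 3. Summed over Socs4 to Socs7, the other members held 27.2, 22.6 and 27.995 CPM per kb in KO, against 33.6, 34.6 and 33.2 CPM per kb in WT. The cytokine-induced members therefore made up 7.22 to 9.72% of SOCS transcripts per length in KO and 12.5 to 20.1% in WT, without overlap (two-sided exact permutation test, p = 0.1, the smallest possible). Most of their total was Socs3.

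The 3 genes whose log2 CPM followed Socs3 most closely over the 6 libraries, of those averaging at least 1 log2 CPM, were Casp4, Relt and Ms4a6d, each with a Pearson correlation of 0.998. Casp4, an inflammatory caspase that senses bacterial lipopolysaccharide in the cytosol, stood at 21.1, 17.9 and 18.6 CPM in KO and 32.3, 38.3 and 29.3 CPM in WT. Of the genes in the pathway lists the closest were Tyk2 (0.993), Cebpd (0.989) and Asb8 (0.980). Among the members Stat3 had a correlation of 0.944 with Socs3, Socs6 and Socs7 of 0.865, Cish of 0.809 and Socs2 of 0.0525. These correlations describe 6 libraries of 2 genotypes, and genes that differ between the genotypes share that difference in the correlation.

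Around the SOCS proteins, 10 lists of JAK-STAT genes with 142 genes in all were described, none of them members. Of the 125 that passed the filter, 38 fell (30.4%, against 16.8% of all genes tested) and 21 rose (16.8%, against 18.5%). Their median log2 fold change was -0.16. Leaving out WT 1 gave 16 falls and 11 rises, leaving out KO 2 gave 18 and 12, and leaving out KO 3 gave 17 and 12. With WT 2 left out 23 genes fell. Without WT 2 and KO 2 together 12 falls and 9 rises were called, and Lifr, Il7r, Rbx1 and Timp1, described with their lists, were among the calls that ended. The Ptpn1 and Ccnd2 calls ended on the deposited signal.

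**Figure D4:**
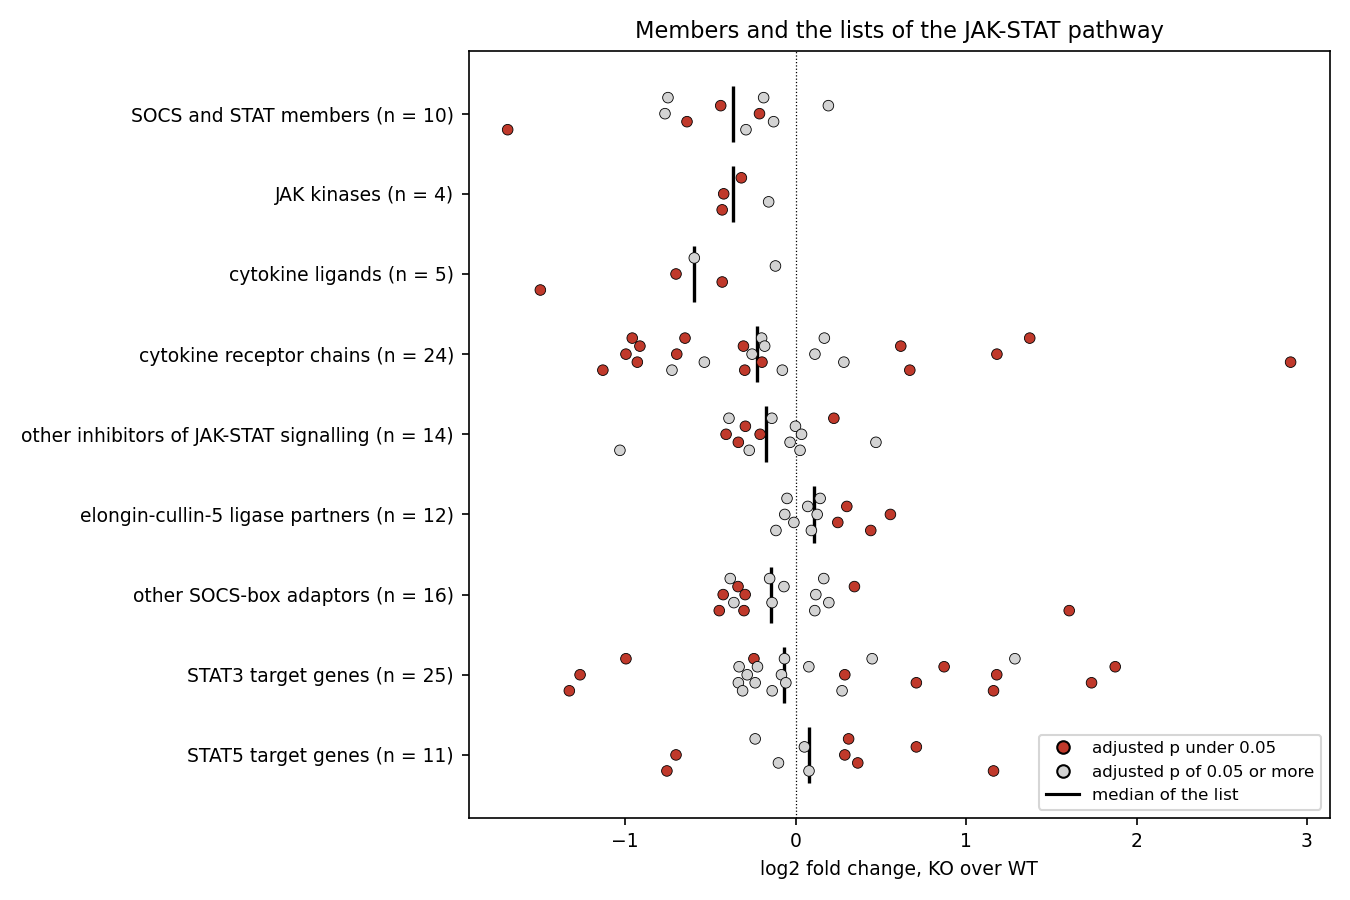
Log2 fold change, KO over WT, of the 10 members (top row) and of every gene that passed the filter in the pathway lists shown, with called genes in red and the median of each list as a line. The JAK and ligand lists have called genes only on the lower side, the ligase list only on the higher side, and the STAT3 and STAT5 target lists on both.

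JAK kinases, some of which SOCS1 and SOCS3 inhibit, fell in 3 of 4 cases (75.0%, against 16.8% of all genes tested), with a median log2 fold change of -0.37. They fell in only 1 case when WT 1 was left out and in 2 cases when WT 2, KO 2 or KO 3 was. Tyk2 stood at 88.5, 80.7 and 84.5 CPM in KO and 109.8, 125 and 105 CPM in WT, and fell by 0.42 on the log2 scale. Jak2, the kinase of the GM-CSF receptor, averaged 34.2 ± 4.68 CPM in KO and 46.1 ± 5.23 CPM in WT, a call that did not survive leaving out WT 1, WT 2, KO 2 or KO 3. Jak1 averaged 299 ± 20.5 CPM in KO and 373 ± 6.95 CPM in WT, a call lost without WT 1. Of 5 other STAT factors tested, 2 fell (40.0%, against 16.8% of all genes tested), Stat4 and Stat5b. From 2 to 4 of the list fell when 1 library was left out. The Stat4 and Stat5b calls both ended without WT 2 and KO 2 together. Stat4, the IL-12 response factor, averaged 4.59 ± 1.44 CPM in KO and 9.58 ± 0.741 CPM in WT (log2 fold change -1.06), and Stat5b, the near twin of Stat5a, averaged 62.8 ± 1.601 CPM in KO and 76.4 ± 3.69 CPM in WT. Stat6, the IL-4 factor, averaged 251 ± 9.20 CPM in KO and 259 ± 6.06 CPM in WT and was not called.

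Most cytokine ligands of the pathway had few counts or none. Of 16 ligands 11 failed the filter, and Il6 had 1 count in a single KO library and 1 in a single WT library. Il10 was measured at 3.05, 2.75 and 1.86 CPM in KO and 2.49, 3.40 and 2.45 CPM in WT, with the genotypes overlapping and no call (log2 fold change -0.12). Of the 5 ligands tested, 3 fell (60.0%, against 16.8% of all genes tested), but 0 were called when WT 1 was left out and 1 when WT 2, KO 2 or KO 3 was. Osm, oncostatin M, a gp130 cytokine that signals to STAT3, stood at 9.86, 6.45 and 8.81 CPM in KO and 14.4, 16.5 and 9.96 CPM in WT, a call lost in 9 of 15 alternatives, among them leaving out WT 1, WT 2, KO 2 or KO 3. Ebi3, a subunit shared by IL-27 and IL-35, averaged 34.5 ± 6.53 CPM in KO and 46.5 ± 4.19 CPM in WT, a call lost in 9 of 15 alternatives, among them leaving out any 1 library except KO 1. Tslp averaged 0.286 ± 0.0865 CPM in KO and 0.811 ± 0.0664 CPM in WT, a call lost without WT 1.

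Receptor chains went both ways, with 10 of 24 falling (41.7%, against 16.8% of all genes tested) and 5 rising (20.8%, against 18.5%). Only 4 fell when WT 1, WT 2 or KO 3 was left out and 6 when KO 2 was, and 3 rose when WT 1 was left out. Lifr, the gp130 partner for leukaemia inhibitory factor, stood at 20.5, 12.1 and 12.5 CPM in KO and 33.8, 33.1 and 32.0 CPM in WT (log2 fold change -1.13, SE 0.20). Il6ra, the IL-6 binding chain, and Il10ra, the IL-10 binding chain, lay on the same side. These 2 were picked after their values were seen, with log2 fold changes of -0.91 and -0.70, while Il6st, the gp130 chain through which Il6ra signals, was at -0.08 and not called. Il11ra1, the IL-11 binding chain, went the other way and rose (log2 fold change 0.62). Il7r, the IL-7 receptor, rose to 108, 181 and 156 CPM in KO, against 56.0, 64.3 and 75.9 CPM in WT. Il27ra averaged 2.69 ± 1.02 CPM in KO and 1.04 ± 0.340 CPM in WT, a call that did not survive leaving out WT 1, WT 2, KO 2 or KO 3. Csf2rb and Csf2rb2, the beta chains for GM-CSF and IL-3, averaged 335 ± 28.7 and 323 ± 42.6 CPM in KO, against 379.7 ± 58.7 and 299 ± 33.9 CPM in WT, and neither was called. Csf2ra, the alpha chain for GM-CSF, rose (log2 fold change 0.67).

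Of 14 other inhibitors of JAK-STAT signalling 4 fell and 1 rose, which for falls and rises together (35.7%) is close to the share of all genes tested (35.2%). Falls numbered 2 without WT 1, 7 without KO 1 and 7 by DESeq2, rises 2 without KO 1, and no rise was called when any other library was left out. Ptpn1, a phosphatase that acts on JAK2 and TYK2, averaged 227 ± 15.2 CPM in KO and 302 ± 9.74 CPM in WT. Sh2b3, the adaptor LNK that restrains JAK2, averaged 131 ± 3.78 CPM in KO and 165 ± 6.08 CPM in WT. Pias1, a nuclear inhibitor of STAT signalling, averaged 69.5 ± 4.50 CPM in KO and 85.2 ± 1.43 CPM in WT, a call lost without WT 1. Ptprc, the phosphatase CD45, fell to 471 ± 16.1 CPM in KO, against 544 ± 17.6 CPM in WT, and Dusp3 rose to 201 ± 12.6 CPM in KO, against 172 ± 8.34 CPM in WT; both calls were lost when any 1 library except KO 1 was left out. Ptpn6, the phosphatase SHP-1, averaged 367 ± 27.5 CPM in KO and 443 ± 55.7 CPM in WT and was called only by DESeq2, with no filter or without KO 1.

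A list of 12 genes held the elongin and cullin-5 ligase, genes of NEDD8 attachment to cullins, and the related subunits Rbx1 and Cul2. In this list 4 genes rose and 0 fell (33.3% called, against 18.5% of all genes called higher), with a median log2 fold change of 0.11. Of the ligase's own parts (Elob, Eloc, Cul5 and Rnf7) Elob alone was called. Elob, the elongin B that the SOCS box binds, stood at 68.8, 71.7 and 76.3 CPM in KO and 48.8, 49.2 and 49.4 CPM in WT (log2 fold change 0.56, SE 0.06). Its partner Eloc, the scaffold Cul5 and the RING subunit Rnf7 had log2 fold changes of 0.09, -0.01 and 0.14. Ube2m, which attaches NEDD8 to cullins, averaged 113 ± 10.5 CPM in KO and 83.5 ± 2.55 CPM in WT. Ube2f, a second NEDD8-attaching enzyme in the list, had a log2 fold change of -0.06 and was not called. Rbx1, the RING subunit of other cullin ligases, averaged 66.8 ± 4.23 CPM in KO and 54.2 ± 1.31 CPM in WT. Nedd8 averaged 113 ± 5.10 CPM in KO and 94.9 ± 3.57 CPM in WT, a call that did not survive leaving out WT 1, WT 2, KO 2 or KO 3. Of 16 other SOCS-box adaptors 5 fell (31.25%, against 16.8% of all genes tested) and 2 rose (12.5%, against 18.5%). There were 2 falls without WT 1, KO 2 or KO 3, and no rise when any 1 library except KO 1 was left out. Rab40c averaged 34.8 ± 3.45 CPM in KO and 47.4 ± 2.67 CPM in WT, and Wsb1 averaged 144 ± 7.32 CPM in KO and 182 ± 5.95 CPM in WT. Asb1 averaged 10.00 ± 1.05 CPM in KO and 13.4 ± 0.702 CPM in WT, a call that did not survive leaving out WT 1, KO 2 or KO 3. Wsb2 and Spsb4 rose to 141 ± 17.99 and 3.64 ± 2.17 CPM in KO, against 111 ± 4.67 and 1.21 ± 0.332 CPM in WT, and both calls were lost when any 1 library except KO 1 was left out.

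Genes known as targets of STAT3 went both ways. Of 25 tested, 7 rose and 4 fell (median log2 fold change -0.07). The share that fell was close to the share of all genes tested that fell (16.8%). The share that rose was above the share of all genes tested that rose (18.5%). From 5 to 6 rose and from 3 to 7 fell when 1 library was left out, with 7 falls only without KO 1. Arid5a, which stabilises Il6 and Stat3 transcripts, stood at 11.9, 7.96 and 11.7 CPM in KO and 24.5, 33.7 and 21.1 CPM in WT (log2 fold change -1.33, SE 0.22). Cebpd, a transcription factor induced by IL-6, stood at 26.8, 17.4 and 19.7 CPM in KO and 51.9, 62.8 and 38.7 CPM in WT (log2 fold change -1.26, SE 0.23). On the other side Il1rn, the IL-1 receptor antagonist, rose to 109 ± 40.7 CPM in KO, against 29.8 ± 7.36 CPM in WT (log2 fold change 1.87), and Timp1, a metalloproteinase inhibitor, rose to 1.45 ± 0.400 CPM in KO, against 0.431 ± 0.109 CPM in WT. Mcl1, a survival factor, averaged 676 ± 64.3 CPM in KO and 789 ± 74.5 CPM in WT and was not called.

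Among 11 tested STAT5 targets 5 rose (45.5%, against 18.5% of all genes tested) and 2 fell (18.2%, against 16.8%), with a median log2 fold change of 0.08. The lists share genes, so their counts are not separate. Ccnd1, Myc and Bcl2l1, which rose, are also in the STAT3 target list, and Osm, which fell, is also in the ligand list. Without WT 1, KO 2 or KO 3 the rises were 2, without WT 2 or WT 3 they were 3, and without WT 1, WT 2, KO 2 or KO 3 there was no fall. Ccnd1, cyclin D1, rose to 335 ± 66.7 CPM in KO, against 149.9 ± 26.6 CPM in WT (log2 fold change 1.16), and Myc rose to 42.6 ± 5.48 CPM in KO, against 26.1 ± 2.49 CPM in WT. Ccnd2, cyclin D2, fell to 10.7 ± 1.96 CPM in KO, against 18.1 ± 4.11 CPM in WT, a call that did not survive leaving out WT 1, WT 2, KO 2 or KO 3. Igf1, insulin-like growth factor 1, averaged 827 ± 78.8 CPM in KO and 798 ± 37.5 CPM in WT and was not called (log2 fold change 0.05), but on the deposited signal it was at 0.39 and passed limma's test (adjusted p = 0.0295).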

How the data were processed

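Total RNA of bone marrow-derived macrophages was sequenced from 3 KO and 3 WT libraries made with a directional kit, per the labels' protocols, and groups were taken from the genotype label. DRAGEN, DESeq2 and the build mm10 are named without versions or roles in the submitters' processing notes, and the sources used here do not give the annotation or strand setting. The authors deposited whole-number counts per gene, taken here as unnormalized, and a signal table in which each count was divided by its own factor, varying by gene and by library.

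Genes were matched by Ensembl ID to GENCODE M21 on GRCm38 for positions and exon lengths, and 42170 of 42256 were given a symbol. Genes with enough counts (filterByExpr, minimum count 10) were tested with edgeR 4.0.16 (R 4.3.3): TMM scaling, robust quasi-likelihood fit, and Benjamini-Hochberg adjustment over all 12862 genes, with a threshold of 0.05. Values are CPM on TMM-scaled totals, and CPM per kb divides them by the union of exon lengths. A total of 3 counts corresponds to 0.0804 to 0.113 CPM. The biological coefficient of variation was 0.121. Single ratios were compared by two-sided exact permutation tests (scipy 1.17.1), which cannot go below p = 0.1 with 3 against 3 libraries.

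Alternatives were DESeq2 1.42.0, limma-voom (limma 3.58.1), other scalings and filters, limma on log2(deposited signal + 1), and fits without each library or without WT 2 and KO 2 together. Libraries of a genotype differed by more than counting noise, so none was treated as a library deposited more than once, which leaves unknown whether cultures or animals were separate. Library numbers 1 to 3 were given here in the order of the sample list and pair no libraries. The members, lists and rules were chosen with earlier results of these data known. Named genes are all members, up to 4 called genes with the largest change and the 2 most abundant genes of each list, and the 3 genes most like Socs3. Other genes named for their list, Il6, Il10, Il6ra, Il10ra, Il6st, Il11ra1, Csf2ra, Eloc, Cul5, Rnf7, Ube2f and Bcl2l1, were chosen after their values were seen. One list and some single genes counted in the totals are not reported here.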

Additional observations from a re-analysis of the deposited data

How the results depend on the processing

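Of the 10 SOCS and STAT genes, 4 were called lower, 3 by DESeq2, by upper quartile scaling, by library totals, with no filter and on the deposited signal, and 2 to 4 when 1 library was left out (2 without WT 1 or WT 2). The 4 called without KO 1 included Cish and not Socs5, whose call was lost whenever 1 library was left out. None was called higher in any fit. Over all genes 4532 were called, 1979 to 5456 when 1 library was left out, and 1378 without WT 2 and KO 2 together. Among the other pathway genes 21 were called higher, 11 to 23 when 1 library was left out and 9 without WT 2 and KO 2. Of these genes 38 were called lower, 16 to 45 when 1 library was left out and 12 without WT 2 and KO 2. The last of these fits has 2 libraries a group. The sign turned for 5 genes that were not called in the comparison as reported. When 1 library was left out, Socs2 ranged from -0.11 (without KO 1) to 0.36, Igf1 from -0.012 (without KO 1) to 0.12, Csf2rb2 from -0.0021 (without KO 3) to 0.19 and Psmb8 from -0.018 (without WT 3) to 0.19, and Stat6 was at 0.013 with upper quartile scaling, and the cause was not tested. Of the values of named pathway genes under the alternatives, 568 kept their direction and side of the threshold, 110 lost a call, 6 gained one and 4 turned sign. Socs3 and Stat3 kept direction and call under all 15 alternatives. Of the 10 genes, Socs2 (9 to 18 counts a library), Cish (19 to 79) and Socs1 (34 to 112) had the lowest counts. No paired analysis was possible because no label ties a KO library to a WT library, and the library numbers were assigned here.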
